A study of Mus musculus with 4 samples.

Results

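The mitochondrial carrier and protein import genes are those whose platform symbol names a solute carrier of family 25, an uncoupling protein, a subunit of the pyruvate carrier or the calcium uniporter, a porin, or a component of the outer or inner membrane import machinery or its processing peptidase. They were chosen by symbol, and a gene with several probe sets was represented by the one with the highest mean signal. Of 14884 genes with a named probe set, 37 matched. The carriers are thinly covered. Of the family 25 carriers 2 had a named probe set, SLC25A15 and SLC25A2, beside the pyruvate carrier genes MPC1 and MPC2. Citrate, phosphate, ADP/ATP and other carriers, the uncoupling proteins and the uniporter gatekeepers of the MICU family were not analysed here, so the values below speak mainly for protein import.

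The arrays compared SW620 cells exposed to F5446 at 50 nM for 2 days (2 arrays) with untreated SW620 cells (2 arrays). SW620 is a line from a human colon carcinoma, and F5446 is described as a selective inhibitor of the histone methyltransferase SUV39H1. Each array gives a log2 signal per probe set, made from labelled cDNA of total RNA. Mouse stands as the organism in the sample records, but SW620 is human and the platform table holds human symbols, and the values are read as human. It is not stated that the replicate arrays stem from different cultures. The p-values therefore reflect array-to-array spread, which may be technical.

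Most mitochondrial proteins are made in the cytosol and enter through the TOM complex of the outer membrane, whose pore is TOMM40. Proteins with a cleavable presequence then pass through the TIM23 complex of the inner membrane and are trimmed by a peptidase in the matrix. Carrier proteins are escorted across the intermembrane space by small TIM chaperones and inserted by the TIM22 complex, while barrel-shaped outer membrane proteins such as the porins are assembled by the SAM complex. The carriers and the pyruvate carrier then move metabolites across the inner membrane.

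F5446-treated cells had less mRNA of most of these genes and more of a few. Of the 37, 21 fell and 7 rose in limma's test (adjusted p under 0.05 over all named genes), and 9 did not pass; without F5446 replicate 2 the rises numbered 4. Over all named genes 40.9% passed, 22.7% fell and 18.2% rose, so the share of members that rose (18.9%) lay near the background and the share that fell (56.8%) lay above it. The members are bright, and bright genes pass more often. Among the 7442 genes at or above the median level of named genes, 36.3% fell and 31.3% rose, against 60.0% and 17.1% of the 35 members at or above that level. The median log2 fold change was -0.24 over the members and -0.05 over all named genes. The treated arrays lay below both control arrays at 25 members and above both at 7, and overlapped them at 5; over all named genes the arrays lay below at 37.7% and above at 28.4%.

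The changes were mostly modest in size. Of the 37 members 5 fell at least 2-fold, a share above the 7.32% of all named genes, and 0 rose at least 2-fold (background 5.40%). The whole range of log2 fold changes ran from -1.82 for TIMM13 to 0.84 for TOMM7. In cultured cells, fewer cells that express a gene and less RNA per cell cannot be told apart. When arrays were shifted to a common median of the named genes (centring), which moves log2 fold changes by 0.13 in the median, 18 members fell and 7 rose and 0 of the 28 called members changed sign. Over all named genes the split is 2714 higher and 3372 lower, and 3420 and 2735 with that centring.

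**Figure D1:**
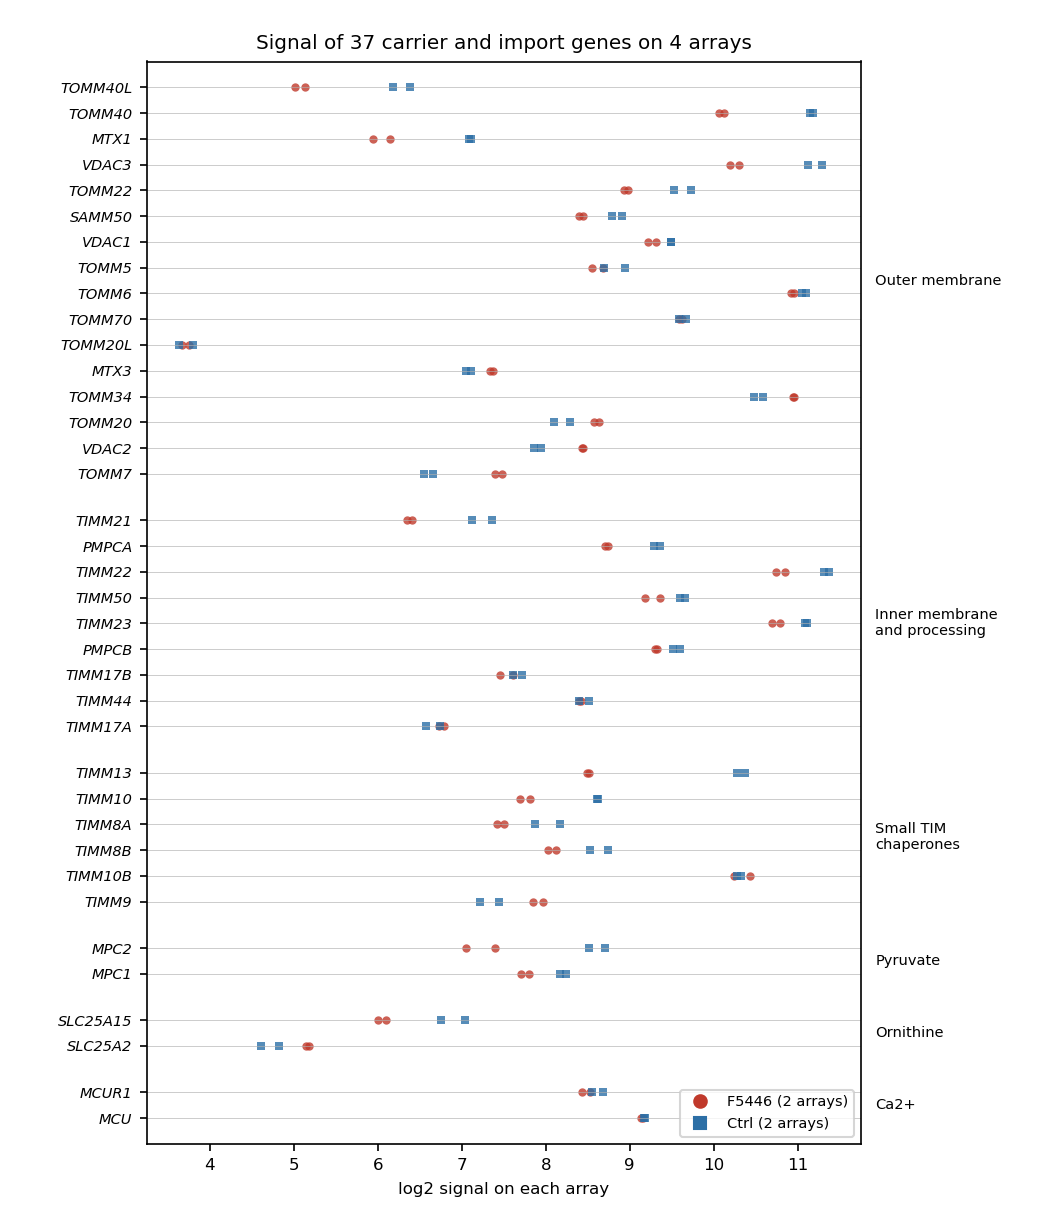
The log2 signal (x axis) of the 37 genes (y axis, grouped by role) is shown for each F5446 array (circles) and each Ctrl array (squares). The groups lie farthest apart at TIMM13, with 8.49 and 8.52 in F5446 cells and 10.28 and 10.37 in Ctrl cells, and overlap at genes such as TOMM70 and TIMM44.

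The SUV39H1 gene itself (probe set 17103413) had a log2 signal of 7.47 and 7.36 in F5446 cells, against 9.12 and 9.17 in Ctrl cells, and SUV39H2 had 6.76 and 6.69 against 7.79 and 7.83. Both fell, by log2 fold changes of -1.73 ± 0.08 and -1.08 ± 0.09 (SE, limma adjusted p = 3.44e-07 and 1.34e-05). The drug acts on the enzyme, so these mRNA levels do not check its action. Of the colon epithelium markers, 10 of 11 were measured. EPCAM (10.23 and 10.34 in F5446 cells, 10.97 and 11.11 in Ctrl cells), KRT18 and KRT19 were bright, while KRT20 did not exceed 3.70 on any array; 6 of the 10 fell and 2 rose, and their summed log2 signal was 70.4 to 70.9 in F5446 cells and 79.8 on each Ctrl array. The largest falls were those of LGR5 (5.36 and 5.05 in F5446 cells, 9.85 and 9.71 in Ctrl cells, 23.9-fold) and VIL1 (6.37 and 6.47 in F5446 cells, 10.35 and 10.23 in Ctrl cells, 14.7-fold), and CEACAM5 rose 3.80-fold. Of the markers of other cell types, CD14, DCN and PECAM1 did not exceed 3.93, whereas LYZ (4.84 and 5.01 in F5446 cells, 6.77 and 6.66 in Ctrl cells) and LUM (4.20 and 3.83 in F5446 cells, 7.04 and 7.03 in Ctrl cells) fell. The 2 measured immune markers summed to 8.63 to 8.72 in F5446 cells and 10.3 to 10.5 in Ctrl cells, and the 4 stromal and endothelial ones to at most 14.3 in F5446 cells and 16.6 in Ctrl cells. VWF, one of these, had 4.35 and 4.33 in F5446 cells and 3.97 and 3.88 in Ctrl cells and did not pass. Of the markers of other tissues, DAZL fell (3.73 and 3.47 in F5446 cells, 4.06 and 4.33 in Ctrl cells) and TNP1 did not pass. The part of all these markers in the results below was not tested.

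The TOM complex, the entry gate, changed in both directions. Of its 7 subunits 3 fell, 2 rose and 2 did not pass. These shares (42.9% lower, 28.6% higher) lie near the 36.3% and 31.3% of genes at or above the median level. TOMM40, the pore (probe set 16863104), had 10.13 and 10.07 in F5446 cells, against 11.15 and 11.18 in Ctrl cells. The groups were well apart, and TOMM40 fell 2.10-fold (log2 fold change -1.07 ± 0.05, SE, limma adjusted p = 4.45e-07). On a dimmer probe set of the same gene the log2 fold change was -0.71. TOMM22, the central receptor that holds the complex together, had 8.93 and 8.98 in F5446 cells, against 9.52 and 9.73 in Ctrl cells, and fell 1.59-fold. TOMM20, the receptor for presequences (probe set 16700703), went the other way. It had 8.58 and 8.64 in F5446 cells, against 8.10 and 8.29 in Ctrl cells, a rise of 1.33-fold (log2 fold change 0.41 ± 0.09, SE, limma adjusted p = 0.0039). That call was lost without F5446 replicate 2 (adjusted p = 0.062, in a range of 0.00060 to 0.062 over the alternatives).

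The small TOM subunits, short membrane proteins that help assemble the pore, also differed from each other. TOMM7 had 7.48 and 7.39 in F5446 cells, against 6.54 and 6.66 in Ctrl cells, and rose 1.78-fold, the largest rise of all members. TOMM6 fell 1.10-fold, with adjusted p = 0.046, but the call was lost in 8 of 12 alternatives, among them leaving out any of the 4 arrays (adjusted p of 0.23 and 0.11 without F5446 replicates 1 and 2, 0.072 and 0.19 without Ctrl replicates 1 and 2; range 0.022 to 0.85). TOMM5 had 8.55 and 8.68 in F5446 cells and 8.69 and 8.94 in Ctrl cells and did not pass (log2 fold change -0.20, 95% confidence interval -0.42 to 0.02), though it passed without Ctrl replicate 1 (adjusted p = 0.041, range 0.041 to 0.62). TOMM70, the receptor for carrier precursors, had 9.59 and 9.62 in F5446 cells and 9.59 and 9.67 in Ctrl cells. It did not pass (log2 fold change -0.03, 95% confidence interval -0.17 to 0.11), and its log2 fold change turned to 0.10 after centring. The interval reflects array-to-array spread, which may be technical.

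Of 3 relatives or helpers of the TOM subunits, 1 fell, 1 rose and 1 did not pass. Over all named genes 22.7% fell and 18.2% rose, and at or above the median level 36.3% and 31.3%. TOMM40L, a dimmer relative of the pore gene (probe set 16672847), had 5.01 and 5.13 in F5446 cells, against 6.18 and 6.38 in Ctrl cells, and fell 2.31-fold (log2 fold change -1.21 ± 0.14, SE, limma adjusted p = 9.40e-05). TOMM34, a cytosolic co-chaperone of precursor proteins, had 10.95 and 10.94 in F5446 cells, against 10.49 and 10.59 in Ctrl cells, and rose 1.33-fold. TOMM20L, a relative of the receptor gene, had 3.75 and 3.67 in F5446 cells and 3.80 and 3.64 in Ctrl cells and did not pass (log2 fold change -0.01, adjusted p = 0.98). It is the single member whose mean falls under 4.42, the median of all values, so its signal is dim.

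The SAM complex and the porins it builds were likewise split. MTX1 (metaxin 1, probe set 16671707) had 6.14 and 5.95 in F5446 cells, against 7.11 and 7.09 in Ctrl cells, and fell 2.07-fold (log2 fold change -1.05 ± 0.11, SE, limma adjusted p = 6.66e-05). SAMM50, the core of the complex, fell 1.35-fold. MTX3, another metaxin, rose 1.21-fold, a call lost in 7 of 12 alternatives (adjusted p = 0.19 and 0.14 without F5446 replicates 1 and 2, 0.072 and 0.14 without Ctrl replicates 1 and 2; range 0.0066 to 0.19).

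The porins form the main pores for metabolites in the outer membrane. VDAC3 had 10.19 and 10.30 in F5446 cells, against 11.12 and 11.28 in Ctrl cells, and fell 1.94-fold. VDAC2, which also binds the apoptosis effector BAK, had 8.44 on each F5446 array, against 7.86 and 7.95 in Ctrl cells, and rose 1.45-fold. VDAC1 (probe set 16999985) had 9.22 and 9.31 in F5446 cells, against 9.49 on each Ctrl array. It fell 1.17-fold (log2 fold change -0.23 ± 0.06, SE, limma adjusted p = 0.019), a call lost in 6 of 12 alternatives, with adjusted p = 0.26 after centring, 0.15 without F5446 replicate 1, and 0.074 and 0.078 without Ctrl replicates 1 and 2 (range 0.0047 to 0.26).

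**Figure D2:**
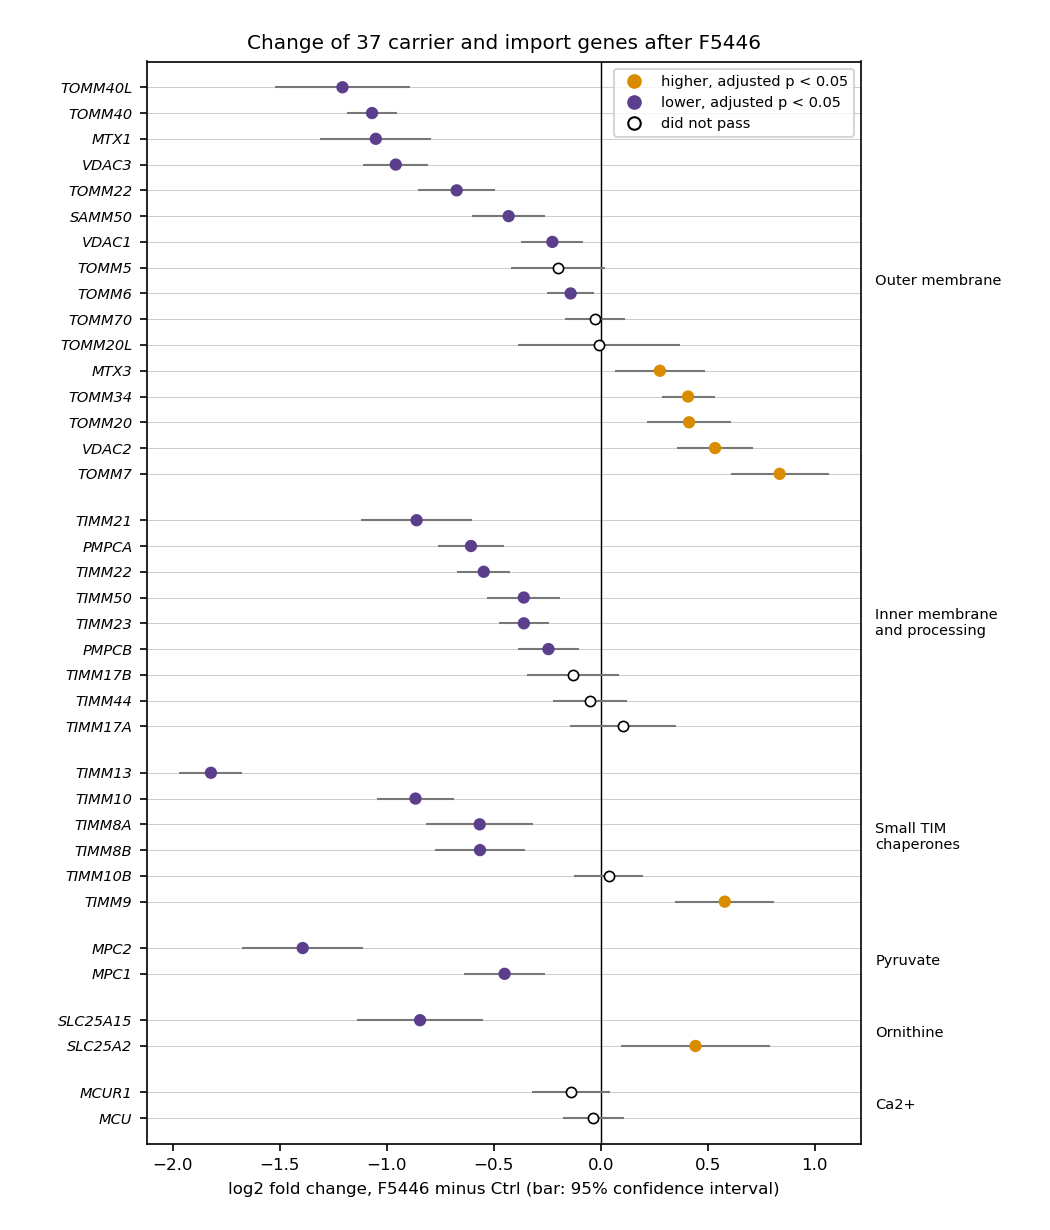
Each point is the log2 fold change, F5446 minus Ctrl (x axis), of a member (y axis, grouped by role), with its 95% confidence interval. Filled points passed the test; members of the outer membrane group lie on both sides of 0, from -1.21 for TOMM40L to 0.84 for TOMM7, while 0 of 9 genes of the inner membrane group rose.

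In the inner membrane, 6 of 9 genes of the TIM23 and TIM22 complexes and the processing peptidase fell, 0 rose and 3 did not pass. That is 66.7% lower, while among genes at or above the median level 36.3% fell and 31.3% rose. TIMM23, the channel for presequence proteins (probe set 16714269), had 10.70 and 10.78 in F5446 cells, against 11.11 and 11.08 in Ctrl cells, and fell 1.28-fold (log2 fold change -0.36 ± 0.05, SE, limma adjusted p = 0.00042). A near-identical copy, TIMM23B, exists in the human genome, and its signal cannot be separated with certainty. TIMM50, the receptor of the complex, also fell 1.28-fold, a call lost without F5446 replicate 2 (adjusted p = 0.053) and without an intensity trend (0.054; range 0.00085 to 0.054). TIMM21, which links the complex to the assembly of respiratory chain subunits (probe set 16853042), had 6.41 and 6.35 in F5446 cells, against 7.12 and 7.35 in Ctrl cells. It fell 1.82-fold (log2 fold change -0.86 ± 0.11, SE, limma adjusted p = 0.00024), the largest change of this group.

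The other TIM23 subunits did not pass. TIMM17A had 6.73 and 6.79 in F5446 cells and 6.57 and 6.74 in Ctrl cells, TIMM17B had 7.61 and 7.46 against 7.62 and 7.71, and TIMM44, which tethers the import motor, had 8.39 and 8.42 against 8.51 and 8.40. Their 95% confidence intervals were -0.15 to 0.35, -0.34 to 0.08 and -0.22 to 0.12. TIMM22, the channel that inserts carriers and the brightest member with a mean of 11.07, had 10.85 and 10.74 in F5446 cells, against 11.31 and 11.37 in Ctrl cells, and fell 1.46-fold. Of the processing peptidase, PMPCA, the subunit that binds presequences, fell 1.52-fold, and its second probe set fell 1.45-fold. PMPCB, the catalytic subunit, fell 1.18-fold, a call lost in 6 of 12 alternatives (adjusted p = 0.18 after centring, 0.094 and 0.071 without F5446 replicates 1 and 2, 0.079 without Ctrl replicate 2; range 0.0026 to 0.18).

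The small TIM chaperones held the largest fall. Of the 6 measured, 4 fell, 1 rose and 1 did not pass. That is 66.7% lower and 16.7% higher, beside 36.3% and 31.3% of genes at or above the median level. TIMM13 (probe set 16866946) had 8.49 and 8.52 in F5446 cells, against 10.28 and 10.37 in Ctrl cells, and fell 3.53-fold (log2 fold change -1.82 ± 0.06, SE, limma adjusted p = 8.82e-08). By size of change it ranked 528 of the 14884 genes. TIMM8A, its partner in a joint ring, had 7.50 and 7.42 in F5446 cells, against 7.88 and 8.17 in Ctrl cells, and fell 1.48-fold. That call was lost without F5446 replicate 2 (adjusted p = 0.051, range 0.00095 to 0.051). TIMM8B, a relative of TIMM8A, fell 1.48-fold as well.

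TIMM9 and TIMM10, which form the other ring, moved in opposite directions. TIMM10 had 7.81 and 7.69 in F5446 cells, against 8.62 and 8.61 in Ctrl cells, and fell 1.82-fold. TIMM9 had 7.85 and 7.96 in F5446 cells, against 7.22 and 7.44 in Ctrl cells, and rose 1.49-fold. In F5446 cells TIMM9 was thus 2.72-fold higher relative to TIMM10 than in Ctrl cells, as computed within arrays. TIMM10B, a small TIM of the TIM22 complex, had 10.43 and 10.24 in F5446 cells and 10.33 and 10.28 in Ctrl cells and did not pass (95% confidence interval -0.12 to 0.20).

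Such unequal changes between partners were also seen elsewhere. Within arrays, F5446 cells had 3.74-fold more TOMM7 relative to TOMM40, 2.79-fold more TOMM20 relative to TOMM40, 2.81-fold more VDAC2 relative to VDAC3 and 2.51-fold more MTX3 relative to MTX1 than Ctrl cells. TIMM8A relative to TIMM13 was 2.39-fold higher in F5446 cells, and PMPCB relative to PMPCA 1.29-fold. The pairs were chosen after their values were seen. With 2 arrays a group an exact permutation test cannot go below p = 0.333 two-sided, so the ratios are descriptions.

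**Figure D3:**
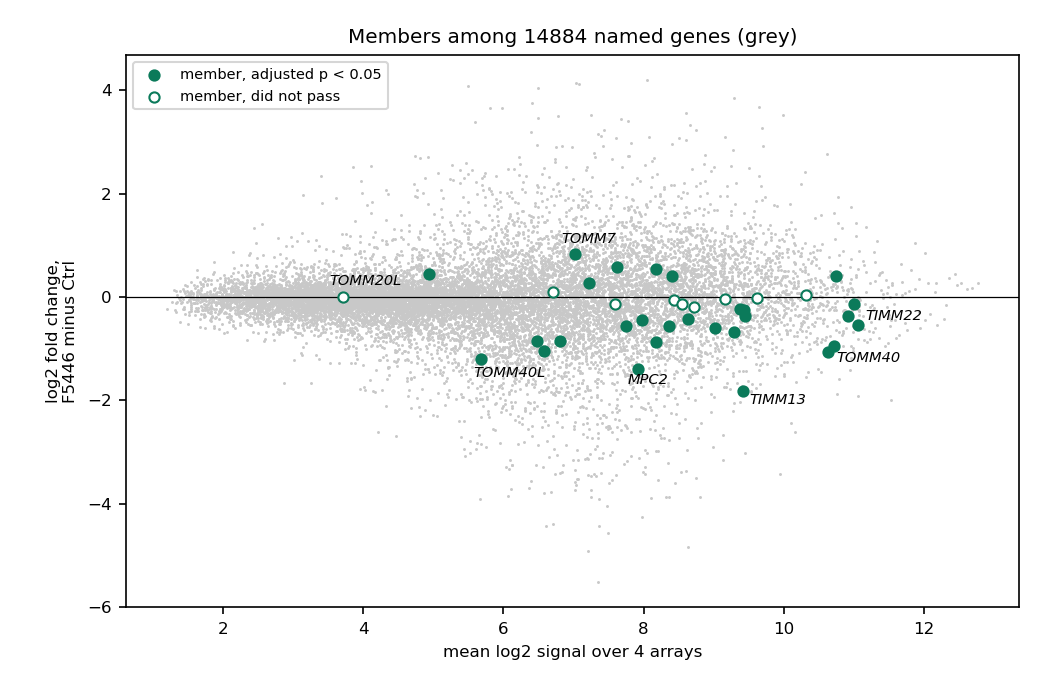
The log2 fold change, F5446 minus Ctrl (y axis), is plotted against the mean log2 signal over 4 arrays (x axis) for all 14884 named genes (grey), with the 37 members in green, filled where they passed the test. Most members lie at bright signals and at or below 0, within the spread of all genes, with TIMM13 lowest at -1.82.

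Both subunits of the mitochondrial pyruvate carrier, which together bring the end product of glycolysis into the matrix, fell. MPC2 (probe set 16696062) had 7.05 and 7.40 in F5446 cells, against 8.52 and 8.71 in Ctrl cells, and fell 2.63-fold (log2 fold change -1.39 ± 0.12, SE, limma adjusted p = 1.90e-05). MPC1 (probe set 17025609) had 7.70 and 7.80 in F5446 cells, against 8.17 and 8.23 in Ctrl cells, and fell 1.37-fold (log2 fold change -0.45 ± 0.08, SE, limma adjusted p = 0.0018). The fall of MPC2 exceeded that of MPC1, with intervals of -1.67 to -1.11 and -0.64 to -0.26.

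The ornithine carriers exchange ornithine and citrulline for the urea cycle and link it to proline and polyamine synthesis. SLC25A15 (probe set 16774235) had 6.10 and 6.003 in F5446 cells, against 7.04 and 6.75 in Ctrl cells, and fell 1.80-fold (log2 fold change -0.84 ± 0.13, SE, limma adjusted p = 0.00061). SLC25A2 had 5.18 and 5.14 in F5446 cells, against 4.82 and 4.61 in Ctrl cells, a log2 fold change of 0.44 with adjusted p = 0.045. This rise is at the edge of the test and was lost in 7 of 12 alternatives (adjusted p = 0.057 with the replicate block, 0.18 and 0.15 without F5446 replicates 1 and 2, 0.054 and 0.18 without Ctrl replicates 1 and 2; range 0.014 to 0.18). Their sequences are alike, so part of the signal could be shared between them. OAT and PYCR1, which make ornithine-derived intermediates and proline in the matrix, fell 1.43-fold and 1.52-fold; both were chosen after their values were seen.

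The calcium uniporter genes did not pass. MCU, the pore (probe set 16705976), had 9.15 and 9.13 in F5446 cells and 9.17 and 9.18 in Ctrl cells, a log2 fold change of -0.04 ± 0.06 (SE, limma adjusted p = 0.73) that turned to 0.09 after centring. Its interval of -0.18 to 0.11 is narrow, but it reflects array-to-array spread, which may be technical. MCUR1, a uniporter regulator, had 8.43 and 8.52 in F5446 cells and 8.55 and 8.68 in Ctrl cells (log2 fold change -0.14 ± 0.08, SE, limma adjusted p = 0.22). MCUB, a pore paralogue known to dampen uniporter activity, which is no member, had 4.97 and 5.14 in F5446 cells, against 7.05 and 7.69 in Ctrl cells, and fell 4.97-fold (limma adjusted p = 1.28e-05). SMDT1, an essential small subunit, did not pass (log2 fold change 0.16, adjusted p = 0.12), though it did after centring (0.29, adjusted p = 0.010). Of 7 measured uniporter partners and ion exchange genes, 3 fell and 0 rose; the others were STOML2 (1.29-fold) and GHITM (1.17-fold, lost after centring with adjusted p = 0.14 and without an intensity trend with 0.13). With centring, 2 fell and 2 rose. Without it, 42.9% of the 7 fell, near the 36.3% of genes at or above the median level, where 31.3% rose. Over all named genes 22.7% fell and 18.2% rose.

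Import partners that the symbols above do not cover also mostly fell. Of 16 measured, 9 fell (56.25%) and 2 rose (12.5%), with a median of -0.23. The shares were 22.7% and 18.2% over all named genes, and 36.3% and 31.3% at or above the median level. After centring 5 fell and 4 rose, and without an intensity trend 1 rose. One of the 16, MAIP1, is also counted among the uniporter partners. MIPEP, a peptidase that trims some presequence proteins a second time, fell 3.27-fold, and MTCH2, an outer membrane insertase, fell 1.76-fold. PITRM1, which degrades cleaved presequences, rose 1.81-fold. HSPA9, the motor chaperone that pulls proteins through TIM23, rose 1.21-fold (a gene picked once its value was known), with 12.33 and 12.29 in F5446 cells and 12.04 on each Ctrl array; without an intensity trend the call was lost (adjusted p = 0.079).

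Of 20 measured mitochondrial proteases, cristae organisers and fusion or fission genes, 11 fell (55%) and 3 rose (15%), with a median of -0.26. Over all named genes 22.7% fell and 18.2% rose, and at or above the median level 36.3% and 31.3%. Among the falls, STOML2 is also counted with the uniporter partners and PHB2 with the mitophagy genes. APOO, a subunit of the cristae junction complex, fell 4.69-fold, and OMA1, a stress-activated protease, and GDAP1, an outer membrane protein of mitochondrial fission, fell 1.84-fold and 1.83-fold. After centring 7 fell and 6 rose, and after quantile normalization 11 fell and 1 rose. Without F5446 replicate 1 or 2, without an intensity trend and with all probe sets in the fit, the rises numbered 0, without Ctrl replicate 1 they numbered 1, and without F5446 replicate 2 the falls numbered 7.

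Enzymes of pyruvate, TCA cycle, folate, glutamine and proline metabolism, some of them cytosolic, were measured too. Of 13 genes of the TCA cycle and pyruvate entry, 8 fell (61.5%) and 3 rose (23.1%), with a median of -0.22. Over all named genes 22.7% fell and 18.2% rose, and at or above the median level 36.3% and 31.3%. DLAT, a pyruvate dehydrogenase subunit downstream of the pyruvate carrier, fell 2.00-fold, ACLY, which splits exported citrate in the cytosol, fell 2.10-fold, and PDP1, a phosphatase that activates pyruvate dehydrogenase, rose 3.91-fold. Falls numbered 4 after centring and without F5446 replicate 1 or 2, and 5 without Ctrl replicate 1; rises numbered 1 whichever array was left out, and the counts were 4 and 1 without an intensity trend. Of 12 genes of folate, glutamine and proline metabolism, 5 fell (41.7%) and 3 rose (25%). These shares lie near those of genes at or above the median level, though some of the 12 are dimmer. GLUD1, glutamate dehydrogenase, rose 6.43-fold, ASNS, asparagine synthetase, rose 3.01-fold, and SHMT1, a cytosolic folate enzyme, fell 4.64-fold.

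Genes of mitochondrial biogenesis, mtDNA maintenance and turnover were also measured. Of 9 genes of biogenesis and of mtDNA transcription and maintenance, 3 rose (33.3%) and 1 fell (11.1%), with a median of 0.16. Over all named genes 18.2% rose and 22.7% fell, and at or above the median level 31.3% and 36.3%. MYC, a transcription factor with many mitochondrial target genes, rose 2.28-fold, and ESRRA, a nuclear receptor that drives such genes, rose 1.83-fold, while NRF1, the nuclear respiratory factor, had 7.24 and 7.48 in F5446 cells and 7.43 and 7.33 in Ctrl cells and did not pass. The fall, of MTERF1, was lost after centring (adjusted p = 0.13), without F5446 replicate 1 (0.13) or 2 (0.16), without Ctrl replicate 1 (0.19) and with all probe sets in the fit (0.095). The falls of this list numbered 2 after quantile normalization, with dim genes left out and with the replicate block. Of 10 mitophagy genes 5 rose and 2 fell (median 0.28), the count of falls being 1 after centring, without an intensity trend and without F5446 replicate 2. In shares, 50% of the mitophagy genes rose and 20% fell, beside 18.2% and 22.7% over all named genes. At or above the median level 31.3% rose and 36.3% fell. OPTN, an autophagy receptor, rose 4.53-fold, BNIP3L, a mitophagy receptor of the outer membrane, 3.83-fold, and SQSTM1 2.57-fold.

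**Figure D4:**
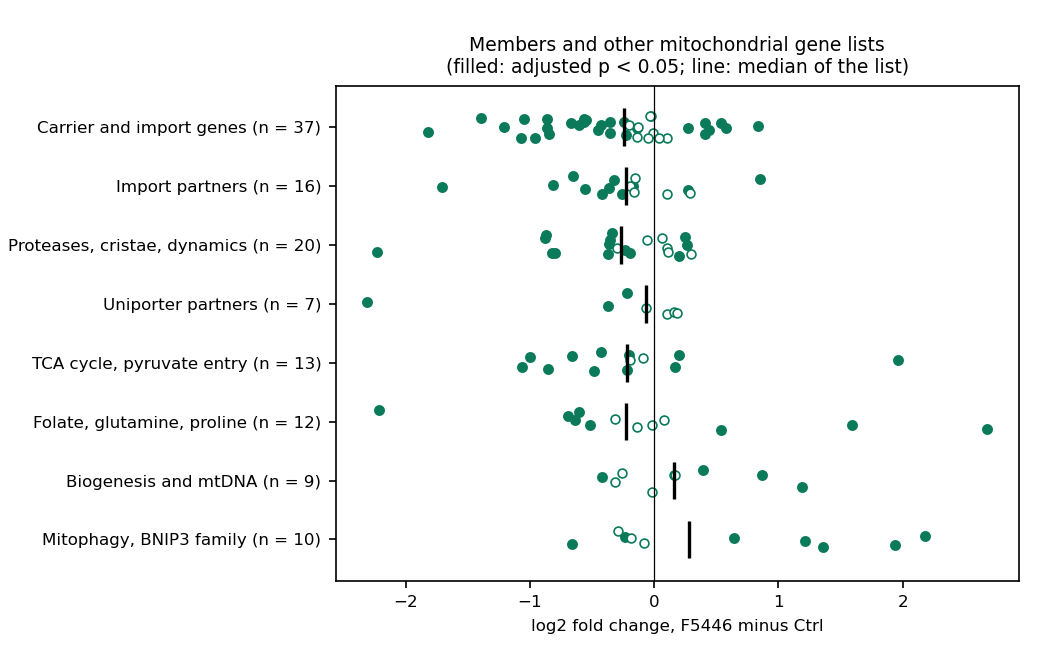
Each point is the log2 fold change, F5446 minus Ctrl (x axis), of a gene in the carrier and import group (top, 37 genes) or another list. The other lists hold mitochondrial genes and related genes, some of them cytosolic. Points are filled where the gene passed the test, with a line at each list's median. The medians run from -0.26 for the list of proteases, cristae and dynamics genes to 0.28 for the mitophagy genes.

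Other gene families were measured on the same arrays. Among 73 mitochondrial ribosomal protein genes 48 fell (65.8%) and 3 rose (median -0.43). The 29 respiratory chain and ATP synthase genes held 13 falls (44.8%) and 4 rises (median -0.32). The 18 solute carriers of other families held 6 falls (33.3%) and 5 rises (median -0.16). For comparison, 22.7% of all named genes fell and 18.2% rose. At or above the median level these shares were 36.3% and 31.3%, so the share of solute carriers that fell lay near that of bright genes. Whether the carrier and import genes differ from these families was not tested.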

How the data were processed

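The authors deposited log2 values of 53617 probe sets for each array. The log2 scale was inferred from the range of 0.71 to 13.78. Partek is named per the submitters' processing notes; the handling of background and scaling was not given in the sources used here. Array medians over all probe sets lay between 4.40 and 4.44. Over the named genes they were 5.50 and 5.52 in F5446 cells and 5.64 on each Ctrl array. A platform table names 16098 probe sets, covering 14884 genes; the other 37519 are unnamed here. Of the members, 2 had a second probe set.

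All 4 arrays entered a limma model (version 3.58.1, R 4.3.3) with group as its term and an intensity trend in eBayes, with two-sided p-values adjusted by Benjamini-Hochberg over all named genes, and checked on simulated data. The number of arrays limits the precision. The members, role groups and gene lists were chosen with earlier results of these data known. Full statistics are given for members past the threshold and changed at least 2-fold, the largest change of each role group, and lead subunits; further members were chosen after their values were seen. For each list the 3 largest changes are named. Alternatives were rescaling, a filter on dim genes, probe set averaging, all probe sets, 2 variance models, a replicate block and left-out arrays. The titles give no pairing beyond a shared number, so the block is an alternative; deviations of same-numbered arrays correlated at 0.04 over all named genes and at 0.43 over the members. Genomic positions and sequences were not used here.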

Additional observations from a re-analysis of the deposited data

How the results depend on the processing

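Of the 28 called members, 20 kept their call in all 12 alternatives, and 0 changed sign. The count of falls (21) ran from 17 to 21 and the count of rises (7) from 5 to 7 outside the left-out arrays. Leaving out 1 array gave 17 to 20 falls and 4 to 5 rises, the 4 being without F5446 replicate 2. The members' median of -0.24 became -0.12 with each array centred, -0.31 with quantile scaling and -0.30 when dim genes were dropped, and ran from -0.32 to -0.22 over left-out arrays, with -0.32 without Ctrl replicate 1. A fit of all 53617 named and unnamed probe sets together called 6274 higher and 5483 lower, since more were tested. Among the members that fit called 18 lower and 5 higher. The median of all named genes, -0.05, became 0.0785 when centred. With the replicate block, 21 members fell and 6 rose, and over all named genes 2722 rose and 3342 fell; the call it ended was that of SLC25A2 (adjusted p = 0.057). Same-numbered arrays deviated together little over all named genes (correlation 0.04) and more over the members (0.43), and no label says that a number marks a pair. Members that did not pass turned sign when centred: MCU (0.0912), TIMM44 (0.0762), TOMM70 (0.0981) and TOMM20L (0.116). Over left-out arrays TIMM10B ran from -0.0585 to 0.131, TIMM44 from -0.106 to 0.0058, TOMM20L from -0.0892 to 0.0686 and TOMM70 from -0.0701 to 0.0134. NRF1, no member, turned to 0.106 when centred and ran from -0.141 to 0.0996 over left-out arrays. Where no value shows it, the cause was not tested. No detection calls were used, so changes of dim genes may be understated.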
